A study of Mus musculus with 6 samples.

Results

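The 10 interleukin receptor chains Il9r, Il7r, Il2rg, Il4ra, Il21r, Il6ra, Il6st, Il10ra, Il17ra and Il17rb were examined in regulatory T (Treg) cells in which Tkt, the gene for the pentose phosphate pathway enzyme transketolase, was targeted for deletion. They were taken by gene symbol from the 18493 genes in the authors' table, and all 10 were found and passed the filter on low counts.

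The cells came from spleen and lymph node of female C57BL/6 mice aged 7 weeks and were selected on CD4, CD25 and YFP by flow cytometry. The conditional knockout (cKO) mice were Foxp3cre/+ TKTfl/fl, with both copies of Tkt floxed, and the wild-type (WT) mice were Foxp3cre/+, so both groups carried the Cre allele and neither was treated. Cre acts where Foxp3 is expressed, and because Foxp3 is X-linked, a female with a single Cre allele is a mosaic from which the YFP sort takes the cells with that allele active. Each group had 3 libraries; the design text counts 3 mice per group, calls both groups chimeric, and does not mention pooling of animals. The p-values therefore reflect variation among the 6 libraries.

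Type I cytokine receptors have no kinase of their own and signal through Janus kinases (JAKs) and STAT factors. The common gamma chain, encoded by Il2rg, is shared by the receptors for IL-2, IL-4, IL-7, IL-9, IL-15 and IL-21, while gp130, encoded by Il6st, is shared by the IL-6 family. IL-17 receptors form a separate family that signals through the adaptor Act1 and NF-kappaB. Il10ra belongs by structure to the class II receptors, with the interferon receptors, so the set is wider than its type I name; it also signals through JAKs and STAT3. Treg cells depend on IL-2 for survival, and usually carry less IL-7 receptor than conventional T cells.

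The largest differences in the set were in the scarcest chains. Il9r, the IL-9-binding chain, and Il17rb, the IL-25-binding chain, were lower in every cKO library than in any WT library, at 0.489 and 0.315 times the WT level. Il17rb rested on only 8.59 to 21.4 estimated reads per cKO library. Il17ra, the chain that IL-17A, IL-17F and IL-25 receptors share, was 23.6% higher in cKO, again without overlap. Of all genes tested, 8.12% were lower and 6.1% higher in cKO without overlap. None of Il9r, Il17rb and Il17ra passed the threshold of adjusted p under 0.05 in edgeR's quasi-likelihood test. Il9r missed it narrowly (adjusted p = 0.0522). All chains but Il9r and Il17rb had log2 fold changes between -0.29 and 0.31.

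Promoter windows are shown for Il9r and Il17rb, the chains with the largest differences, so that the start regions of these genes can be read beside their values. They run from 250 bases before to 50 after the start site, 5′ to 3′ on the gene's strand, from RefSeq on GRCm38.p6, the same build as mm10. The windows are chr11:32200230-32200529 on the minus strand for Il9r and chr14:30008847-30009146 on the minus strand for Il17rb. The Il9r window surrounds a start site inside the annotated gene, whose far 5′ end lies at 32205283, and the windows at other starts were not examined. Capitals mark matches to TTCNNNGAA (STAT), TGANTCA (AP-1) or TGTGGT (RUNX), searched on both strands; no matches overlapped in these windows.
Il9r: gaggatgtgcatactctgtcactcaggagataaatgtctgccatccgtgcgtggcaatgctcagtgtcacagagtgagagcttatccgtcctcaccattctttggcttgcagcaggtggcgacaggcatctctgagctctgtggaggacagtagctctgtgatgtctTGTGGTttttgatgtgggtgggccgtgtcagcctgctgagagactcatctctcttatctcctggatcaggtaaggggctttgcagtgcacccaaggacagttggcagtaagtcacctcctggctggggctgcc
Il17rb: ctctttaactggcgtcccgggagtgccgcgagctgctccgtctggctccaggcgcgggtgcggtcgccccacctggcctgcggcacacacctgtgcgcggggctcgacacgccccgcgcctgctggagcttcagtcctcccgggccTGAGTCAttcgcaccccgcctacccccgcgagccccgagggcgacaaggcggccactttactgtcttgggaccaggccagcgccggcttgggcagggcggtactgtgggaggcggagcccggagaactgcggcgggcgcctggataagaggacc
The Il9r window held 1 RUNX match, starting 83 bases before the start site, and the Il17rb window held 1 AP-1 match, starting 104 bases before it. Neither window held the STAT letters. Among 32851 windows of the same length, 8.3% held the STAT letters, 7.8% the AP-1 letters and 16.8% the RUNX letters. Windows were found for 8 of the 10 genes; Il10ra and Il17ra had none in the table. The one STAT match among these 8 windows was in Il7r, 142 bases before its start. A match describes letters only.

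The libraries were of like depth and held 17180577 to 18215168 estimated reads. Tkt, the floxed gene, stood at 52.5, 44.8 and 31.9 CPM in cKO1 to cKO3, against 126, 97.1 and 121 CPM in WT1 to WT3 (CPM, read counts scaled to library size after TMM; log2 fold change -1.41 ± 0.19 SE, adjusted p = 0.0516 in edgeR's test), so its RNA was lower in every cKO library but still present; which exons were floxed is not given in the labels. Foxp3 stood at 559 to 676 CPM in cKO and 458 to 686 CPM in WT, and Cd4 at 735 to 844 and 769 to 930.5 CPM. The 8 Treg markers summed to 3360 to 3760 CPM in cKO and 3740 to 4500 CPM in WT, with Ctla4 the highest. WT2 and cKO1 stood together at one end of the first principal component, which held 36.1% of the variance.

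Markers of other cell types were summed in each library. The 10 B cell markers summed to 18.5 to 39.8 CPM in cKO and 23.0 to 25.2 CPM in WT, with Cd79b the highest, and the 7 CD8 T and NK markers to 34.7 to 42.0 and 37.8 to 42.4 CPM, with Cd8b1 the highest. The 9 myeloid markers, led by Lyz2, summed to 42.3 to 110.3 CPM in cKO and 36.4 to 73.8 CPM in WT. The 6 erythroid markers, led by Hba-a1, reached 197 CPM in cKO1 and were at most 5.56 CPM elsewhere. The list for group 2 innate lymphoid and mast cells, other known carriers of Il9r and Il17rb, summed to 190 to 257 CPM in cKO and 241 to 273 CPM in WT over 7 markers found. Nearly all of this was Gata3, which Treg cells also express; Cpa3 was at most 0.359 CPM and Il5 at most 0.113 CPM. The 6 conventional or memory T cell markers, of which Il7r is one and Tcf7 the highest, summed to 2540 to 2810 CPM in cKO and 2340 to 2480 CPM in WT. No marker in any of these lists was at 0 in all libraries, and none was called. The part of these lists in the receptor values was not tested. In bulk libraries, fewer cells of a type and less RNA per cell cannot be told apart.

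Per length, the 10 chains spanned a wide range of levels. Il2rg was the highest at a mean of 494 FPKM over the 6 libraries (reads scaled by gene length and depth, from the authors). Il21r at 106 FPKM and Il4ra at 85.1 FPKM followed, each above the next chain in all 6 libraries and with no overlap of ranges. Il17ra (56.1), Il7r (55.8), Il6ra (55.7) and Il6st (52.9 FPKM) came next, with ranges that overlapped, so no order among these chains exceeded the spread. Il10ra stood apart at 17.8 FPKM. Il9r (1.74) and Il17rb (0.967 FPKM) were far below the rest; their ranges over all libraries overlapped, but Il9r was above Il17rb in each of the 6.

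**Figure D1:**
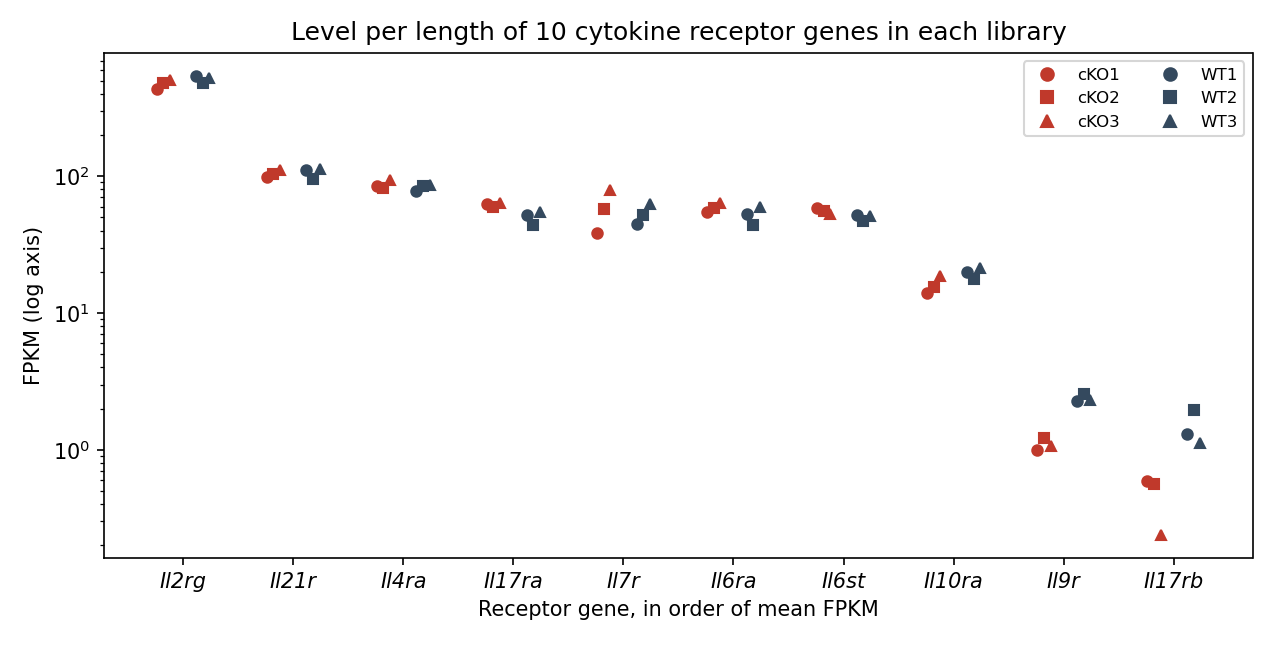
FPKM of each receptor gene on a log axis, with genes in order of mean FPKM; red points are the 3 cKO libraries and dark points the 3 WT libraries. Il2rg lies highest at 435 to 541 FPKM, 4 chains from Il17ra to Il6st share a level, and Il9r and Il17rb lie at 0.24 to 2.55 FPKM with cKO below WT.

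In the comparison of cKO with WT, 27 of 12887 genes were called by edgeR's test. That is 0.21% of those tested (0.202% lower and 0.00776% higher in cKO). None of the 10 receptor chains was among them, and limma-voom called none of the 10 either. DESeq2 called 2, both lower in cKO, beside 1.22% of all genes that DESeq2 called lower. At an unadjusted p under 0.05, 4 of the 10 chains were counted (Il9r, Il17rb, Il17ra and Il10ra), beside 7.69% of all genes tested. The cKO and WT libraries did not overlap for 4 chains, lower for Il9r and Il17rb and higher for Il17ra and Il6st, beside 14.2% of all genes tested (8.12% lower and 6.1% higher). The signs of the 10 fitted changes were even, with 5 above and 5 below 0 and a median log2 fold change of 0.03, beside 0.0042 over all genes tested. The smallest two-sided p that an exact permutation test can reach in this design is 0.1, and each chain therefore rests on the model fitted across all genes.

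**Figure D2:**
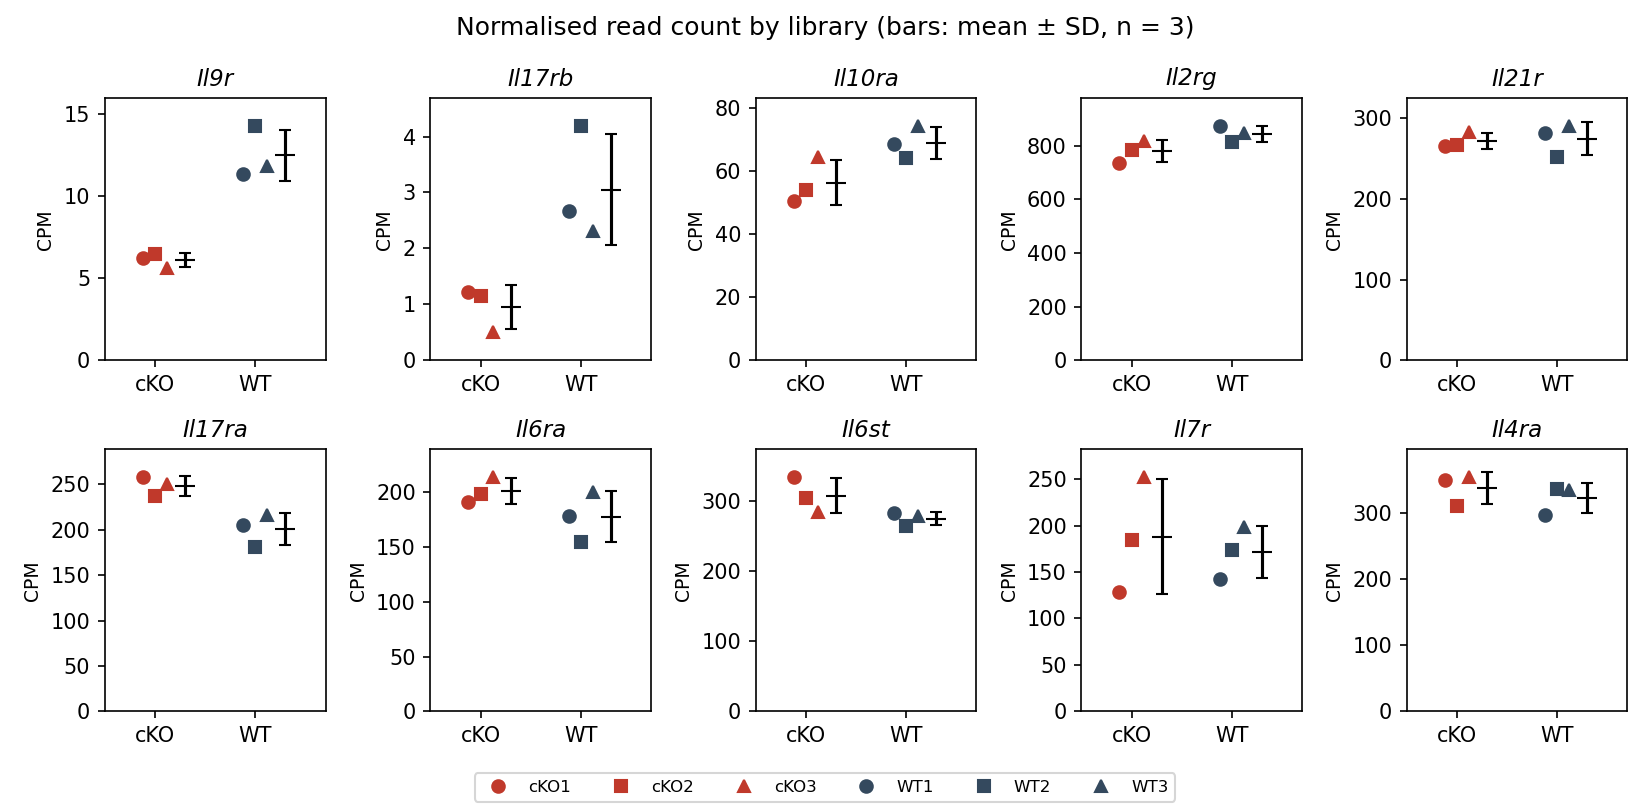
Normalised read count (CPM after TMM scaling, axes from 0) of each receptor gene in the 3 cKO libraries (red, left) and the 3 WT libraries (dark, right), with the mean ± SD beside them. The groups are apart for Il9r, Il17rb, Il17ra and Il6st and overlap for the other 6 genes.

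Among the chains that pair with the common gamma chain, Il9r had the clearest difference. It lies on chromosome 11 from 32187544 to 32205283 (Entrez 16199). Il9r stood at 6.22, 6.49 and 5.63 CPM in cKO1 to cKO3, against 11.4, 14.3 and 11.9 CPM in WT1 to WT3. The cKO libraries lay close together and the gap to the lowest WT library was wider than the spread within either group. The means were 6.11 ± 0.441 CPM in cKO and 12.5 ± 1.56 CPM in WT (SD, n = 3 each). Its log2 fold change was -1.03 ± 0.14 (SE), with a 95% interval from -1.37 to -0.70. It ranked 34th of all genes by p in edgeR's test (adjusted p = 0.0522). Il9r was counted from only 101 to 239 reads per library. On the authors' FPKM scale it stood at 0.99, 1.23 and 1.07 in cKO, against 2.28, 2.55 and 2.30 in WT. The gene length implied by reads and FPKM together was 6121 bases in cKO1 and 5071 to 5454 bases in the other libraries, so the authors' length for this gene differed between libraries.

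The call on Il9r turned on the setting. It was called in 4 of 16 alternatives, with an adjusted p from 5.8e-05 with DESeq2 to 0.221 without WT3, while its log2 fold change stayed between -1.09 and -0.93. Besides DESeq2, the robust fit, the newer edgeR fit and the fit without a low-count filter called it. Those 3 fits called 0.372%, 0.264% and 0.233% of all genes.

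The genes most alike to Il9r in pattern over the 6 libraries were Srgap3, Plcb4 and Icos. They had the smallest root-mean-square differences of centred log2 CPM from Il9r among 11104 genes, at 0.0972, 0.108 and 0.125. Srgap3 stood at 1.98, 2.34 and 1.84 CPM in cKO1 to cKO3, against 3.38, 4.31 and 3.83 CPM in WT1 to WT3. Plcb4, a phospholipase C, stood at 17.4 to 18.3 CPM in cKO, against 30.8, 34.7 and 30.6 CPM in WT1 to WT3. Icos, a costimulatory receptor, stood at 143, 129.6 and 119.5 CPM in cKO, against 223, 253 and 214 CPM in WT. Each was lower in all cKO libraries, and WT2 was the highest library for Il9r as for these genes. Because they were picked for likeness to Il9r in these same libraries, the shared pattern follows from the choice. It is no separate support for the difference in Il9r. Plcb4 (adjusted p = 0.0444 in edgeR's test) and Icos (adjusted p = 0.0449) were called and Srgap3 was not (adjusted p = 0.247).

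Il2rg, the common gamma chain itself, did not pass the test. It stood at 736, 785 and 816 CPM in cKO1 to cKO3, against 872, 813 and 845 CPM in WT1 to WT3. Only cKO3 reached into the WT range. The log2 fold change was -0.11 ± 0.08 (SE), or -7.64% with a 95% interval of -18.3% to 4.35%, and the adjusted p was 0.829 in edgeR's test. Il2rg shares 30.5% of its exon bases with Gm20489, a gene model on the same strand, so reads there could come from either. Gm20489 is not among the genes the authors listed. Relative to Il9r, on the FPKM scale, Il2rg was 390.5 to 472 times as high in cKO and 189 to 237 times in WT. This ratio was not tested. It carries the difference in Il9r itself, and the authors' length for Il9r differed between libraries.

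The other partners of the common gamma chain had overlapping groups. Il7r, the IL-7 receptor alpha chain, was the most variable of the well-expressed chains, at 128, 184 and 252 CPM in cKO1 to cKO3, against 142, 174 and 199 CPM in WT1 to WT3. cKO libraries held both its lowest and its highest value, and the coefficient of variation was 33.0% in cKO and 16.5% in WT. Its log2 fold change was 0.13 ± 0.24 (SE; adjusted p = 0.970 in edgeR's test), an interval from -25.8% to 61.9% that leaves changes of moderate size undetermined. Without cKO3 its sign turned, to -0.14.

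Il4ra, the IL-4-binding chain that also serves IL-13, stood at 350.3, 311 and 355 CPM in cKO1 to cKO3, against 297, 336 and 336 CPM in WT1 to WT3. Il21r, the IL-21-binding chain, stood at 265, 266 and 283 CPM in cKO, against 281, 252 and 289.7 CPM in WT. The groups overlapped for both chains. The 95% interval was -9.41% to 21.2% for Il4ra (adjusted p = 0.950 in edgeR's test) and -13.3% to 12.9% for Il21r (adjusted p = 0.993). Both lie on chromosome 7, Il4ra from 125552271 to 125579474 and Il21r from 125603252 to 125634397.

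In the IL-6 receptor both chains had fitted levels a little above WT. Il6ra, the IL-6-binding chain, stood at 191, 198 and 213 CPM in cKO1 to cKO3, against 178, 154 and 200.2 CPM in WT1 to WT3. WT3 lay within the cKO range, and WT2 was the lowest library. Il6st, the shared signal chain gp130, stood at 335, 305 and 285 CPM in cKO, against 283, 265 and 279 CPM in WT, with the lowest cKO library just above the highest WT library. The log2 fold changes were 0.18 ± 0.11 for Il6ra and 0.16 ± 0.08 for Il6st (SE), with adjusted p-values of 0.815 and 0.772 in edgeR's test. The FPKM ratio of Il6st to Il6ra overlapped between groups, at 0.822 to 1.08 in cKO and 0.859 to 1.06 in WT. The size of these small differences moved with the libraries left out, while their sign did not change. The log2 fold change of Il6ra was 0.09 without WT2 and 0.27 without WT3, and that of Il6st was 0.10 without cKO1 and 0.07 without WT2 and cKO1.

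Il10ra, the IL-10-binding chain, averaged lower in cKO without passing the test. It stood at 50.5, 54.0 and 64.3 CPM in cKO1 to cKO3, against 68.5, 64.1 and 74.2 CPM in WT1 to WT3. cKO3 and WT2 were nearly level, and the other cKO libraries lay below all of WT. The means were 56.3 ± 7.20 CPM in cKO and 69.0 ± 5.08 CPM in WT (SD, n = 3 each). The fitted difference was -0.29 ± 0.11 on the log2 scale (SE; adjusted p = 0.559 in edgeR's test). Il10rb, the second chain of the IL-10 receptor, stood at 60.9 to 74.2 CPM in cKO and 56.0 to 70.5 CPM in WT (adjusted p = 0.941). The FPKM ratio of Il10rb to Il10ra was 2.18 to 2.44 in cKO and 1.65 to 1.95 in WT. These ranges did not overlap, but the ratio was not tested. How often ratios of other gene pairs separate in this way was not computed. Il10ra lies on chromosome 9 from 45253837 to 45269149.

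The IL-17 receptor chains differed in opposite directions. Il17ra, on chromosome 6 from 120463181 to 120483731, stood at 258, 237 and 251 CPM in cKO1 to cKO3, against 206, 181 and 216 CPM in WT1 to WT3. All cKO libraries lay above all WT libraries. The means were 248 ± 10.8 CPM in cKO and 201 ± 17.8 CPM in WT (SD, n = 3 each), and the log2 fold change was 0.31 ± 0.09 (SE). That is a 95% interval of 7.04% to 42.7% (adjusted p = 0.365 in edgeR's test). It was called in none of 16 alternatives; the lowest adjusted p was 0.115 with DESeq2. Myeloid cells also express Il17ra. Their summed markers stood at 75.8, 110.3 and 42.3 CPM in cKO1 to cKO3, against 38.1, 73.8 and 36.4 CPM in WT1 to WT3. The part of myeloid cells in the Il17ra values was not tested.

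Il17rb had the largest fitted change of the set and the fewest reads. It lies on chromosome 14 from 29996168 to 30008896 and stood at 1.22, 1.14 and 0.501 CPM in cKO1 to cKO3, against 2.66, 4.19 and 2.31 CPM in WT1 to WT3. The groups did not overlap, and WT2 was the highest library and cKO3 the lowest. These values came from 8.59 to 21.4 estimated reads in cKO and 41.0 to 69.8 in WT, and exact 95% Poisson intervals, which cover counting error only, met between groups: 0.756 to 1.87 CPM for cKO1 and 1.66 to 3.13 CPM for WT3. The log2 fold change was -1.67 ± 0.40 (SE), with an interval from -2.61 to -0.72 (adjusted p = 0.250 in edgeR's test). DESeq2 called Il17rb (adjusted p = 0.0427) along with Il9r, so 2 of the 10 chains, both lower, beside 1.22% of all genes; no other alternative called it.

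Il17rb overlaps Actr8, a gene on the opposite strand, over 3.8% of its exon bases, where reads cannot be told apart if strand was not used. Actr8 stood at 34.7 to 38.0 CPM in cKO and 34.1 to 39.4 CPM in WT. Per length, Il17ra was 106 to 265.5 times as high as Il17rb in cKO and 22.4 to 48.2 times in WT. That ratio restates the differences of both chains and was not tested. Il4ra and Il6ra also share 9.5% and 2.8% of their exon bases with antisense gene models, which are not among the genes the authors listed.

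**Figure D3:**
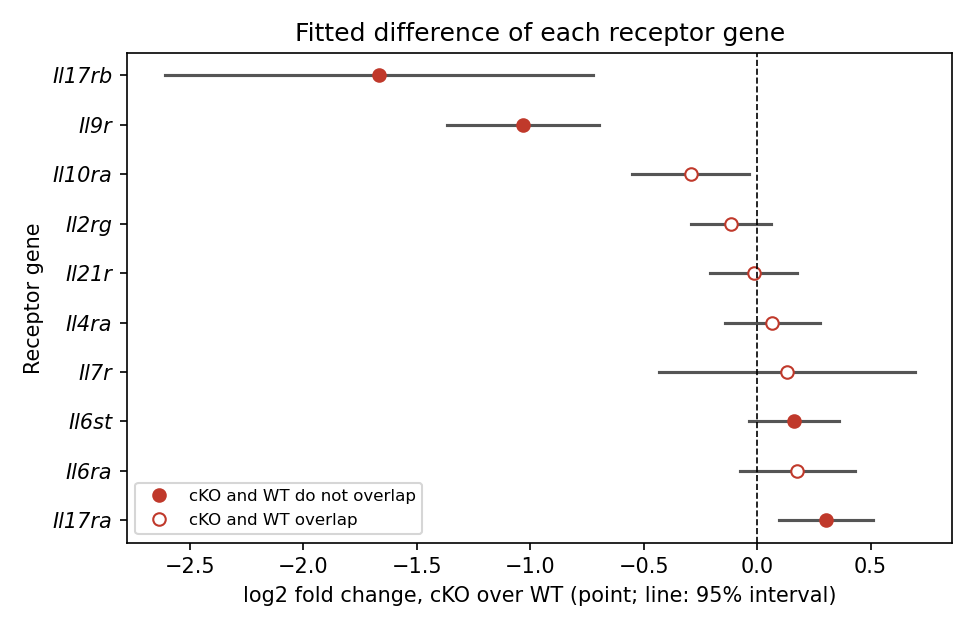
Log2 fold change of cKO over WT for each receptor gene (point) with its 95% interval (line) from edgeR's fit; filled points mark genes whose cKO and WT libraries do not overlap. Il17rb and Il9r lie far left at -1.67 and -1.03, and the other 8 genes lie between -0.29 and 0.31.

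**Figure D4:**
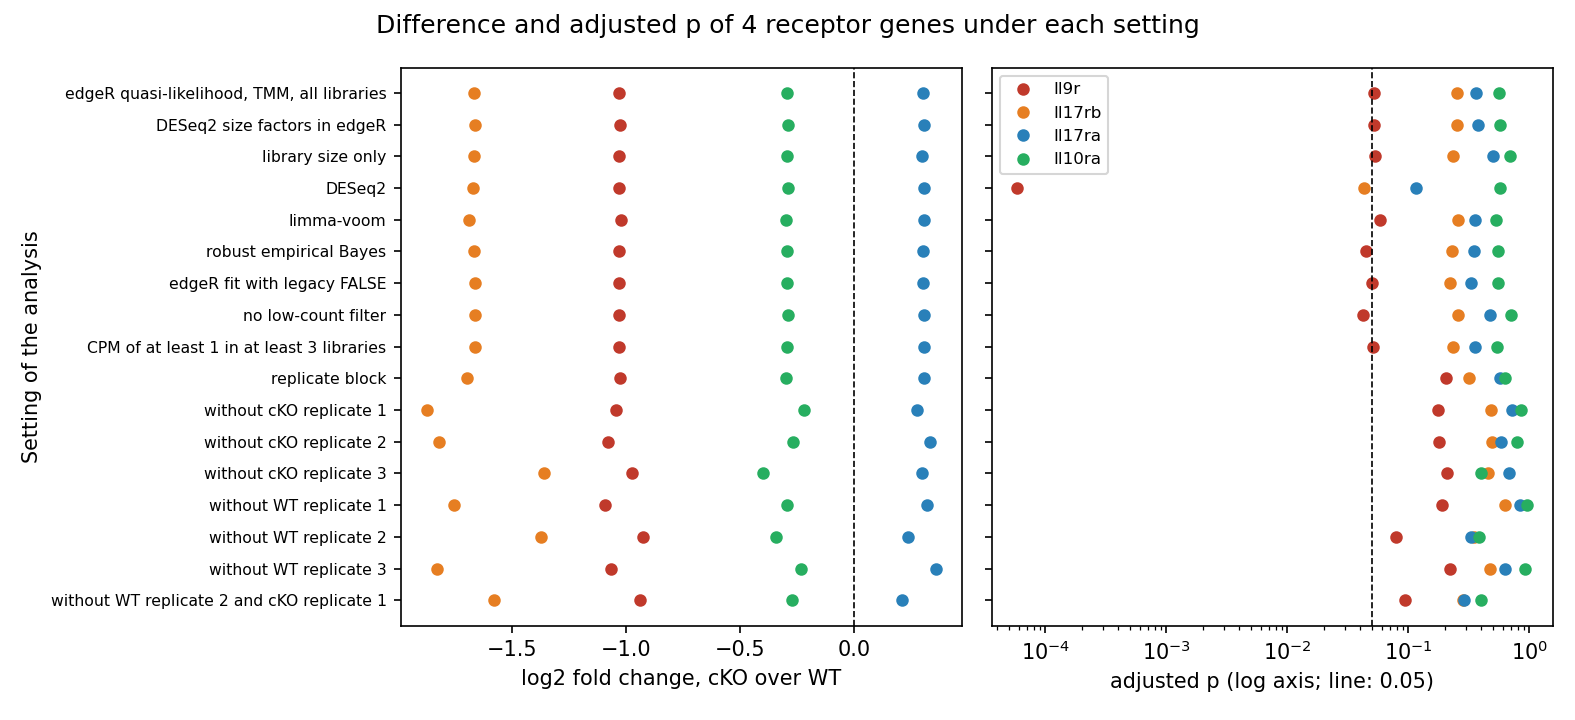
Log2 fold change (left) and adjusted p on a log axis (right, dashed line at 0.05) of Il9r, Il17rb, Il17ra and Il10ra under each setting of the analysis, 1 row per setting. The log2 fold changes keep their order and sign throughout, while the adjusted p of Il9r lies on both sides of 0.05.

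The partner receptor chains outside the set did not pass the test either. Of 29 listed, 19 were tested, and none was called higher or lower by edgeR, DESeq2 or limma-voom. In edgeR's test 1 (Lifr) had an unadjusted p under 0.05, beside 7.69% of all genes tested. The median log2 fold change was 0.02. Il2ra encodes CD25, a marker of the sort, and was measured at 664 to 833 CPM in cKO and 628 to 824 CPM in WT (log2 fold change 0.01 ± 0.13 SE, adjusted p = 0.9996 in edgeR's test). Il2rb, which joins it and the common gamma chain in the IL-2 receptor, stood at 1191 to 1258 CPM in cKO and 1147 to 1297 CPM in WT (log2 fold change 0.01 ± 0.08 SE, adjusted p = 0.999). Lifr, the receptor chain for LIF, had the lowest p (adjusted p = 0.519 in edgeR's test). It stood at 0.981 to 1.28 CPM in cKO and 0.610 to 0.658 CPM in WT. These values came from only 10.6 to 23.2 estimated reads per library. Il12rb1, a chain of the IL-12 and IL-23 receptors, was next (adjusted p = 0.751). Its values were 24.4 to 32.5 CPM in cKO and 30.4 to 38.6 CPM in WT. Of the other IL-17 receptor chains, Il17rd was tested (adjusted p = 0.974), while Il17rc and Il17re were too low to test.

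Few ligands of these receptors were expressed. Of 21 listed, 18 were in the table and 8 passed the filter; Il2, Il4, Il6, Il7 and Il13 were among those below it. None was called by edgeR or limma-voom, 3 had an unadjusted p under 0.05 in edgeR's test, and DESeq2 called Il10 and Ebi3, both lower. Over all genes the shares were 7.69% at an unadjusted p under 0.05 and 1.22% called lower by DESeq2. Of the 8, 7 had a fitted change below 0, and the median log2 fold change was -0.34, beside 0.0042 over all genes tested. Il10 stood at 26.7, 23.4 and 16.8 CPM in cKO1 to cKO3, against 42.2, 64.1 and 48.9 CPM in WT1 to WT3. Ebi3, a subunit of IL-27 and IL-35, stood at 10.8, 14.9 and 12.3 CPM in cKO, against 29.4, 18.4 and 25.3 CPM in WT. For both, all cKO libraries lay below all WT libraries, as for 8.12% of all genes tested, with adjusted p-values of 0.0978 and 0.165 in edgeR's test. Il17a was counted at 0.501 to 0.872 CPM in cKO and 1.02 to 1.75 CPM in WT (adjusted p = 0.550). Il10 and its receptor chain Il10ra both averaged lower in cKO, and edgeR's test called neither.

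No kinase or adaptor below the receptors stood past the threshold. None of the 15 tested was called by edgeR, DESeq2 or limma-voom. At an unadjusted p under 0.05 in edgeR there were 0, beside 7.69% of all genes tested. The median log2 fold change was 0.06. Jak1 stood at 806 to 930.1 CPM in cKO and 795 to 814 CPM in WT (log2 fold change 0.11 ± 0.08 SE, adjusted p = 0.849 in edgeR's test). Jak3, the kinase bound by the common gamma chain, stood at 487 to 560.1 CPM in cKO and 462 to 570.0 CPM in WT (log2 fold change 0.01 ± 0.10 SE, adjusted p = 0.996). Ptpn6, a phosphatase that restrains cytokine signals, had the lowest p of this list, at 221 to 255 and 178 to 227 CPM (adjusted p = 0.847). Traf3ip2, which encodes Act1, stood at 119 to 130.2 CPM in cKO and 132 to 136 CPM in WT (log2 fold change -0.08 ± 0.07 SE, adjusted p = 0.891). Irs2, an adaptor of the IL-4 receptor, varied widely, at 46.0 to 322 CPM in cKO and 51.8 to 221 CPM in WT, and its log2 fold change of 0.43 ± 0.81 (SE; adjusted p = 0.970) is undetermined.

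Target and feedback genes of these receptors did not pass the test. None of 14 was called by any of these tools. Again 0 had an unadjusted p under 0.05 in edgeR, beside 7.69% of all genes tested. The median log2 fold change was -0.09. Socs3, a feedback inhibitor of gp130 signals, had the lowest p, at 229 to 245 CPM in cKO and 243 to 291 CPM in WT (log2 fold change -0.20 ± 0.09 SE, adjusted p = 0.661 in edgeR's test). Nfil3, a transcription factor induced by cytokines, stood at 29.3 to 82.9 CPM in cKO and 76.1 to 119.7 CPM in WT (adjusted p = 0.703). Cish, a target of IL-2 and STAT5, stood at 269 to 291 CPM in cKO and 282 to 302 CPM in WT (adjusted p = 0.925). Bcl2, a survival gene downstream of IL-7 and IL-2, stood at 432 to 533 CPM in cKO and 356 to 438 CPM in WT (adjusted p = 0.742). Zc3h12a, a feedback regulator of IL-17 signals, varied widely within both groups, at 68.5 to 302 CPM in cKO and 92.7 to 358 CPM in WT, and was highest in cKO1 and WT2.

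**Figure D5:**
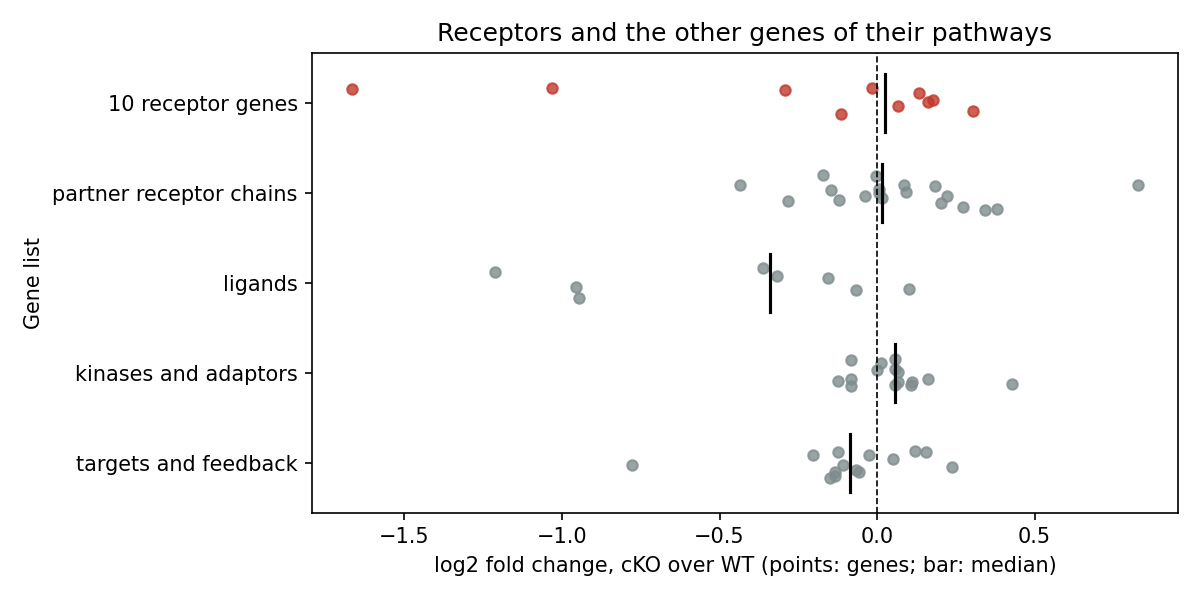
Log2 fold change of cKO over WT of the tested genes in each list (points) with the list's median (bar); the 10 receptor genes are in red at the top. The medians are 0.03 for the receptors, 0.02 for partner chains, -0.34 for ligands, 0.06 for kinases and adaptors and -0.09 for targets and feedback genes.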

How the data were processed

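CD4+CD25+YFP+ cells from 3 cKO and 3 WT mice were sequenced, and groups and replicate numbers come from the sample titles. Build mm10 and the tools featureCounts 1.5.0-p3, HISAT2 2.0.5 and DESeq2 1.16.1 are listed, without roles, in the submitters' processing notes. Tests used the authors' deposited estimated counts, which are unnormalized and fractional (over 0.01 from a whole number) for 45.4% to 46.3% of genes. The source of the fractions and any use of strand are not given in the sources used here. The authors also deposited values that behave as FPKM, judged from the values themselves.

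Estimated counts were rounded. In R 4.3.3, genes passing filterByExpr of edgeR 4.0.16 (minimum count 10) were kept, 12887 of 18493. Libraries were scaled by TMM, and the two-sided quasi-likelihood F test of edgeR was run with group as the only term, with Benjamini-Hochberg adjustment over all genes tested. Standard errors and 95% intervals were derived from the F statistic. The code was tested on simulated data. DESeq2 1.42.0, limma-voom (limma 3.58.1) and other alternatives are covered at the end.

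The receptor genes, the pathway lists and the pair of libraries left out together were chosen with earlier results of these data known. Named were all 10 receptor genes, Tkt, the sort markers, every called member and the 2 members with the lowest p of each pathway list, the highest member of each marker list, and the 3 genes closest to the receptor gene with the lowest p. Further pathway genes named were chosen after their values were seen. Closeness was the root-mean-square difference of centred log2 CPM (prior count 2).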

Additional observations from a re-analysis of the deposited data

How the results depend on the processing

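Against 27 genes called, DESeq2 called 179, the robust fit 48, the fit without a low-count filter 43 and the fit without WT2 and cKO1 71. Leaving out single libraries gave 0 to 30 calls: 30 without WT2, of which 15 were among the 27, and 0 without any other library in edgeR (where 681 to 909 genes had an unadjusted p under 0.05). Of the 10 receptor chains, DESeq2 called 2, the robust fit 1, the newer edgeR fit 1, the fit without a filter 1, and every other setting 0. The cause was not tested. All chains kept their direction under every alternative except Il7r, at -0.14 without cKO3, and Il21r, at 0.0014 without cKO1, 0.0054 without WT1 and 0.028 without WT3. Over the fits that left libraries out, Il7r ranged up to 0.35 (without WT2 and cKO1) and Il21r down to -0.074 (without WT2).

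With the replicate number as a block, 0 genes and 0 receptor chains were called (811 genes at an unadjusted p under 0.05). The deviations of same-numbered libraries correlated at -0.28, 0.06 and 0.26 across genes, and cKO1 correlated best with WT2 (0.31), so the numbers are not taken to pair the samples. Read depth limits Il17rb most, with 8.59 reads in its lowest library.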
